A study of Mus musculus with 2 samples.

Results

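Collagens are the proteins that give the connective tissue around the eye its fibres, sheets and networks. Among 32285 genes in the feature list, 44 carry a symbol made of Col, a number, the letter a and a number, and 42 of them were kept because they had at least 20 unique molecular identifiers (UMIs, each standing for 1 captured RNA molecule) over both libraries. Just above that limit lay Col2a1 with 22 UMIs, Col28a1 with 47 and Col22a1 with 48. Col17a1 with 10 UMIs and Col6a4 with 2 lay below it and are not described further.

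The study asked how a low dose of doxorubicin (Dox), a chemotherapy drug used here to induce senescence, changes the retinal pigment epithelium (RPE), the pigmented cell layer between the photoreceptors and the choroid. Male C57BL/6J mice of 3 months were given 1 µl under the retina of either PBS (control) or Dox at 100 ng/µl, and eyes were taken 7 days later. For each condition 10 eyes of 5 mice were pooled, the retina was removed, and the sheet of RPE, choroid and sclera left in the eyecup was dissociated with papain, cleared of dead cells and made into 1 droplet library with a kit that reads the 5′ end of each RNA. With 1 library per condition there is no biological replicate, so no difference between control and Dox could be tested, and every interval below covers counting error only.

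As background, collagen chains wind around each other into a triple helix, and the types differ in what those helices build. Fibrillar collagens form the ropes of sclera and tendon. Type 4 chains form the mesh of basement membranes, short chain types 8 and 10 form hexagonal or mesh-like lattices, and FACIT collagens (fibril-associated, with interrupted helices) sit on the surface of fibrils. Bruch's membrane, on which the RPE rests, is made by RPE and choroid together and contains basement membranes on both faces.

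The libraries held 20381 control and 15649 Dox cell barcodes, of which 20180 and 15426 passed the filters of the study, with 117731270 and 103997248 UMIs before filtering. The same barcode sequence occurred in both libraries 441 times. RPE cells were taken as cells with 10 or more UMIs of Rpe65, the visual cycle isomerase, which gave 1526 control and 1630 Dox cells with median depths of 16013.5 and 18115.5 UMIs. In these cells 9 of the 10 RPE markers reached 10 counts per 1000000 UMIs (CPM). The same number reached that level in every other cell group, so this does not set RPE cells apart. All 8 melanocyte markers and 11 (control) and 10 (Dox) of 19 fibroblast markers also reached that level in RPE cells. Summed, the RPE markers stood at 102000 and 102500 CPM in RPE cells, against 3445 to 30070 CPM in the other named groups. All other cells were grouped by clustering without the collagens into fibroblast-like (22375 cells over both libraries), melanocyte-like (4225), macrophage or antigen presenting-like (1489), smooth muscle or pericyte-like (1315), NK or T-like (732), endothelial-like (658) and Schwann-like cells (89). A further 86 cells of the RPE-like cluster were under the Rpe65 limit, and 1481 cells stayed unnamed. The melanocyte-like cluster was shallow, with medians of 1267 and 779 UMIs, and its first leading gene was the globin Hbb-bs. Of the 3156 RPE cells, 2701 lay in the RPE-like cluster and 204 in the unnamed cluster. A further 147 lay in the melanocyte-like cluster (92 control and 55 Dox) and 75 in the fibroblast-like clusters (17 control and 58 Dox). Within a library a CPM value is the summed UMIs of a cell group over its total, and since each molecule gives 1 UMI whatever its length, levels were not divided by gene length.

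The start regions of the type 4 and type 8 genes are shown first, because 2 of the 3 type 4 gene pairs share a start region and the type 8 pair does not. RefSeq windows on GRCm38.p6, from 250 bases before to 50 after a start, were at hand for 33 of the 42 members. Col4a3 (chr1:82586921-82722059, plus strand) and Col4a4 (chr1:82448423-82586849, minus strand), the type 4 pair of RPE cells, lie head to head. In the Col4a4 window at chr1:82586800-82587099, read 5′ to 3′ on the minus strand, the capitals mark the 71 bases that separate the annotated starts of the 2 genes.
Col4a4: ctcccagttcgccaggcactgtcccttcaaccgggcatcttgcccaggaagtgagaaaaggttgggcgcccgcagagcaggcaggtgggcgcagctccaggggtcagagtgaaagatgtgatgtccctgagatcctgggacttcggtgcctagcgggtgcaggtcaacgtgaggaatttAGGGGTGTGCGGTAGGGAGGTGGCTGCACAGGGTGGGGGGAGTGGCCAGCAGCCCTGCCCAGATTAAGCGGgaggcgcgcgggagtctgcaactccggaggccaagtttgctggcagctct
Col4a1 and Col4a2, the pair highest in endothelial-like cells, lie head to head on chromosome 8 with first bases that overlap by 22, which the capitals mark in the Col4a1 window at chr8:11312777-11313076, minus strand.
Col4a1: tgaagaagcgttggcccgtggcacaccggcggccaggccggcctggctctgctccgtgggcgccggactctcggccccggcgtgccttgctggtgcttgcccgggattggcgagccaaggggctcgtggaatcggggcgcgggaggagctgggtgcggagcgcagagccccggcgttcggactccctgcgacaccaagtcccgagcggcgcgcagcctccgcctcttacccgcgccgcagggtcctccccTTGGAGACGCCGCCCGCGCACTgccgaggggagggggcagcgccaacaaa
Col8a1 and Col8a2, the most abundant pair in RPE cells, are on chromosomes 16 and 4 and share no start region. Col8a1 spans chr16:57624258-57754737 and Col8a2 chr4:126286793-126314330. The capitals in their windows, chr16:57754688-57754987 on the minus strand and chr4:126286544-126286843 on the plus strand, mark GGGCGG or its complement, which occurs 4 times in each.
Col8a1: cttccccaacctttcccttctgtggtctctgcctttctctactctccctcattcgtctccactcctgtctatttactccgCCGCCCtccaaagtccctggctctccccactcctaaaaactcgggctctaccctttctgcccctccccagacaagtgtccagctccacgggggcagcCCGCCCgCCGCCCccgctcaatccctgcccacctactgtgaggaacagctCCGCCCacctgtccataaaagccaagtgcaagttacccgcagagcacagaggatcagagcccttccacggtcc
Col8a2: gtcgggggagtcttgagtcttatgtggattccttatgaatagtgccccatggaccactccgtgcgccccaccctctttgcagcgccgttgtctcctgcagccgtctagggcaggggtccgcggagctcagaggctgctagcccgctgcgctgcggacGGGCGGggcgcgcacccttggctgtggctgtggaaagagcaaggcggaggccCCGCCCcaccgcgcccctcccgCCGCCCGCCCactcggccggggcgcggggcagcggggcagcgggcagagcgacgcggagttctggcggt
GGGCGG was found on either strand in 22 of the 36 windows of the members, and in 35.7% of all 32851 RefSeq windows of the same length. It was not found in the Col4a4 window. Col4a3, Col9a3 (chr2:180597790-180622189, plus strand) and Col1a1 (chr11:94936224-94953042, plus strand) are named without a window. TAATCC and CACGTG were in none of the 36 windows, against 7.06% and 7.15% of all windows, and CATGTG was in 3, against 14.2%. A match is a run of letters and says nothing of a factor binding there.

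RPE cells carried nearly as much collagen RNA per UMI as fibroblast-like cells, but of other genes. All members together summed to 2611 CPM (2592 to 2631, control) and 2898 CPM (2879 to 2917, Dox) in RPE cells, and to 3275 and 3327 CPM in fibroblast-like cells. The lowest sums were in macrophage or antigen presenting-like cells (844 and 678 CPM) and NK or T-like cells (1030 and 943 CPM), which are not known as collagen producers, and their 3 most abundant members in both libraries were Col8a1, Col1a1 and Col1a2. Summed levels in between were seen in smooth muscle or pericyte-like cells (1481 and 1297 CPM), endothelial-like cells (1440 and 1402 CPM) and melanocyte-like cells (1411 and 1764 CPM). Schwann-like cells reached 2185 and 2378 CPM, from only 57 and 32 cells, with Col18a1 first. Outside these named groups, the 86 cells of the RPE-like cluster under the Rpe65 limit summed to 3596 and 4381 CPM. The unnamed cells summed to 3053 and 4265 CPM. Over both libraries these sums were 4099 and 3471 CPM, above the 3299 CPM of fibroblast-like cells.

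**Figure D1:**
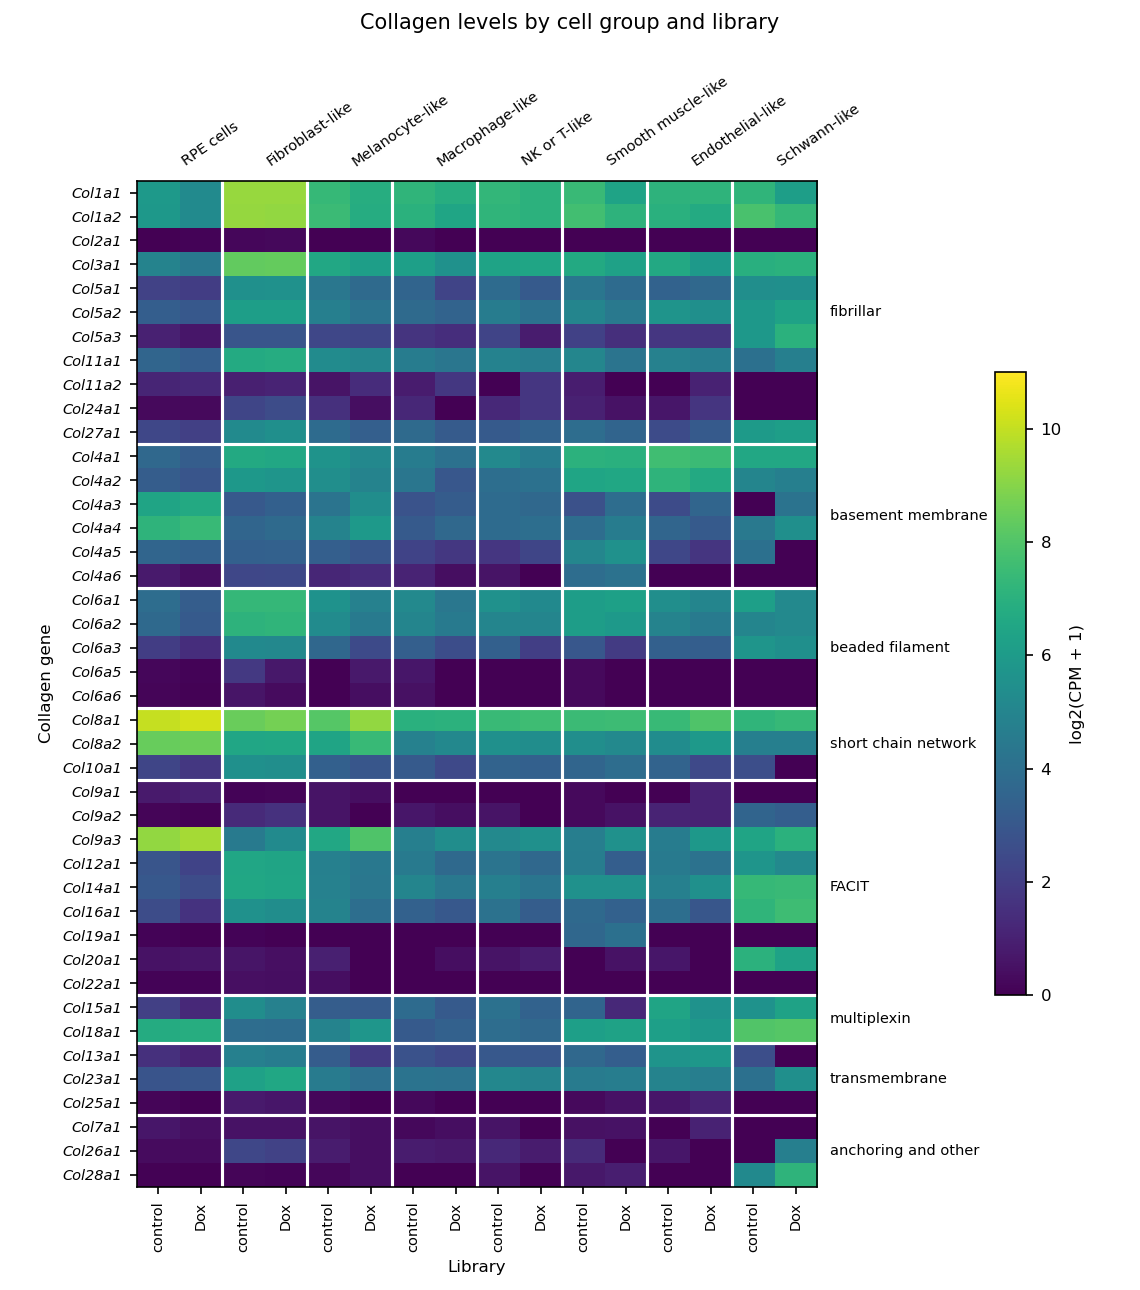
Level of each of the 42 collagens (rows, ordered by class) in the 8 cell groups, with control and Dox as neighbouring columns, as log2(CPM + 1), where yellow is high and dark blue is low. In the RPE columns Col8a1, Col9a3 and Col8a2 are brightest and Col4a3, Col4a4 and Col18a1 follow, while the type 1 and type 3 chains are brightest in the fibroblast-like columns.

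Each member was highest in 1 of the 8 named groups when both libraries were pooled. Fibroblast-like cells held the highest level of 16 members, 11 of them above the next group beyond counting error. Over all 17305 genes with 20 or more UMIs in the named groups, 9.8% were highest in fibroblast-like cells and 4.38% beyond counting error. RPE cells held the highest level of 7 members (all genes: 15.3%), 5 of them beyond counting error (all genes: 8.69%). These 5 were Col4a3, Col4a4, Col8a1, Col8a2 and Col9a3, and they led in both libraries taken singly. Schwann-like cells led for 10 members (all genes: 19.8%), 8 beyond counting error (all genes: 3.43%). Endothelial-like cells led for 5 (all genes: 11.8%), 3 of them beyond counting error (all genes: 4.63%), and smooth muscle or pericyte-like cells for 3 (all genes: 10.9%), each beyond counting error (all genes: 5.5%). No member was highest in melanocyte-like cells, where 9.77% of all genes were. NK or T-like cells led for no member either, and Col11a2 was highest, at 1.36 CPM, in macrophage or antigen presenting-like cells, within counting error of RPE cells at 1.30 CPM.

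By class, the collagen RNA of RPE cells was mostly of the short chain kind and that of fibroblast-like cells mostly fibrillar. Short chain network collagens made up 54.0% (exact Clopper-Pearson 95% interval 53.7 to 54.4) of the collagen UMIs of control RPE cells and 55.2% (54.9 to 55.5) in Dox. FACIT collagens gave 23.6% and 25.7%, nearly all of it Col9a3. Basement membrane chains gave 9.89% and 10.1%, and multiplexins 4.27% and 3.999%. Fibrillar collagens were 6.70% of the collagen UMIs in control and 4.13% in Dox RPE cells. In fibroblast-like cells the fibrillar class held 56.0% and 55.5%, the short chain class 15.2% and 16.4%, and beaded filament type 6 held 10.2% and 10.1%. Endothelial-like cells gave the basement membrane class 24.8% and 21.7%, the largest share of that class among the groups in control, and smooth muscle or pericyte-like cells gave it 19.3% and 24.5%.

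**Figure D2:**
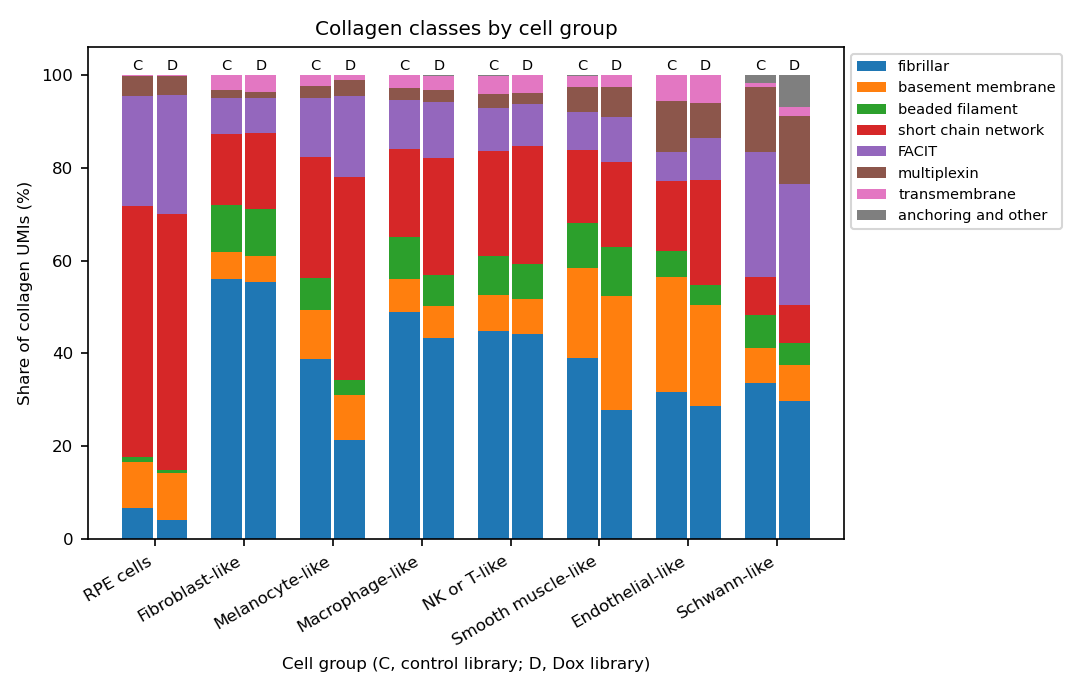
Share of the collagen UMIs of each cell group that came from each collagen class, in percent, with 1 stacked bar for control and 1 for Dox. The RPE bars are filled to 54.0% and 55.2% by the short chain class and the fibroblast-like bars to 56.0% and 55.5% by the fibrillar class.

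Short chain collagens came first in RPE cells. Col8a1, a chain of the type 8 lattice found in Bruch's membrane and in corneal basement membrane, stood in RPE cells at 1062 CPM (control, exact Poisson 95% interval 1049 to 1074) and 1234 CPM (Dox, 1221 to 1246). This was 40.7% and 42.6% of all their collagen UMIs. Its partner chain Col8a2 stood at 344.7 CPM (337.6 to 351.9) and 363.5 CPM (356.9 to 370.3). Over both libraries Col8a1 was 3.01 times and Col8a2 3.86 times as high in RPE cells as in fibroblast-like cells. Col8a1 was not limited to the RPE. At 361.8 and 410 CPM it was also the most abundant collagen of fibroblast-like cells after the type 1 chains. The ratio of Col8a1 to Col8a2 UMIs was 3.08 (3.01 to 3.16) in control RPE cells and 3.99 (3.87 to 4.10) in control fibroblast-like cells, and 3.39 and 4.40 in Dox. The intervals of the 2 cell groups did not overlap in either library. The third member of the class, Col10a1, best known from growth plate cartilage, ran the other way, with 44.5 and 41.8 CPM in fibroblast-like cells against 3.91 and 2.40 CPM in RPE cells.

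Type 9 collagen was represented by 1 of its 3 chains. Col9a3 was the second collagen of RPE cells, with 596.8 CPM (control, 587.5 to 606.2) and 731.4 CPM (Dox, 722.0 to 741.0). It was also the member with the steepest rise over fibroblast-like cells, 23.3-fold over both libraries. Type 9 molecules in cartilage are built from 3 different chains, and the other two were rare here. In RPE cells Col9a1 was seen with 19 and 29 UMIs and Col9a2 with 3 and 1, so that Col9a3 exceeded Col9a1 by a ratio of 826.5 (529.1 to 1373) and 787 (548 to 1175). Most UMIs of Col9a2, 100 in control and 111 in Dox, came from fibroblast-like cells (1.73 CPM over both libraries), and its highest level, 9.85 CPM in Schwann-like cells, rested on 3 UMIs. These are counts of RNA and do not say which chains are assembled.

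Among basement membrane collagens the 3 gene pairs were each led by another cell group. Col4a3 and Col4a4, chains of the specialised network of glomerulus, lens capsule and other strong basement membranes, were highest in RPE cells. Col4a4 stood at 141.7 and 168.5 CPM and Col4a3 at 84.1 and 100.3 CPM. Against fibroblast-like cells Col4a4 was 13.2-fold and Col4a3 11.2-fold higher. Col4a5, the chain that completes that network, was at 11.1 and 9.68 CPM in RPE cells and so within counting error of fibroblast-like cells (fold 1.07, log2 interval -0.04 to 0.24). It was highest in smooth muscle or pericyte-like cells, at 31.8 and 45.8 CPM. Its neighbour Col4a6, head to head with it but further apart, was also led by smooth muscle or pericyte-like cells, with 14.5 and 16.5 CPM. Col4a6 had 19 and 10 UMIs in RPE cells.

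The general basement membrane chains Col4a1 and Col4a2 were highest in endothelial-like cells. In endothelial-like cells Col4a1 stood at 196 CPM (control) and 182 CPM (Dox), and Col4a2 at 140.5 and 101.3 CPM. Smooth muscle or pericyte-like cells followed, with Col4a1 at 131.5 and 125 CPM. Fibroblast-like cells had Col4a1 at 101.9 and 96.97 CPM and, by their number, 12176 of its 14895 UMIs in the named groups, and Schwann-like cells were at 95.2 CPM over both libraries. RPE cells were the lowest of the 8 groups for both chains, at 12.2 and 8.40 CPM for Col4a1 over the 2 libraries and at 7.37 CPM for Col4a2 when they were pooled. The group at the top of the Col4a1 and Col4a2 pair was thus not the group at the top of the Col4a3 and Col4a4 pair. Within RPE cells Col4a4 exceeded Col4a3 by 1.69 in control and 1.68 in Dox, and in fibroblast-like cells by 1.49 and 1.37. In fibroblast-like cells, however, Col4a3 and Col4a4 stood at only 8.30 and 11.8 CPM over both libraries. NK or T-like cells, which are not known as collagen producers, had 12.9 and 13.8 CPM.

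Multiplexins lie in basement membranes and release the fragments endostatin (Col18a1) and restin (Col15a1). In RPE cells Col18a1 stood at 108 CPM (control, 104 to 112) and 114.5 CPM (Dox, 110.8 to 118.3), 7.88-fold above fibroblast-like cells. It was higher still in Schwann-like cells, with 257 CPM (190 to 340) and 271 CPM (184 to 385) from 49 and 31 UMIs. Smooth muscle or pericyte-like cells (72.1 and 81.1 CPM) and endothelial-like cells (73.1 and 57.3 CPM) also carried it. Col15a1 was low in RPE cells, at 2.24 CPM over both libraries, and was led by endothelial-like cells at 72.6 CPM, within counting error of Schwann-like cells at 59.1 CPM. RPE cells thus carried 1 of the 2 multiplexins.

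Fibrillar collagens were the mark of fibroblast-like cells. Col1a1 stood there at 633.6 CPM (control, 627.6 to 639.7) and 621.5 CPM (Dox, 614.9 to 628.0), Col1a2 at 605 and 600 CPM, and Col3a1 at 327 and 340 CPM. The type 1 molecule holds 2 chains of Col1a1 and 1 of Col1a2, yet the 2 RNAs were near equal, with a ratio of 1.05 (1.03 to 1.06) in control and 1.04 (1.02 to 1.05) in Dox. In smooth muscle or pericyte-like cells that ratio was 0.868 in control and 0.595 (0.492 to 0.718) in Dox, the latter from 179 and 301 UMIs. Of the minor fibrillar chains that set fibril width, Col11a1 stood at 105 and 112 CPM, Col5a2 at 70.5 and 70.1 CPM and Col5a1 at 45.2 and 46.6 CPM in fibroblast-like cells. The remaining type 5 chain, Col5a3, was at 57.8 and 131 CPM in Schwann-like cells, from 11 and 15 UMIs, against 6.46 CPM in fibroblast-like cells over both libraries. Col27a1 was also highest in Schwann-like cells, at 65.6 CPM. Over both libraries Col24a1 stayed at 4.40 CPM or lower in every named group. Pooled in the same way, Col2a1, the main collagen of cartilage and vitreous, was at 0.156 CPM in fibroblast-like cells and lower in the other named groups.

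Type 6 beaded filaments anchor cells to the matrix around them. Col6a1 and Col6a2 stood at 160 and 135.5 CPM in control fibroblast-like cells and at 157 and 144 CPM in Dox, next to 70.5 and 66.2 CPM in smooth muscle or pericyte-like cells over both libraries. Col6a3 was at 36.7 and 33.7 CPM in fibroblast-like cells and at 49.2 CPM, from 15 UMIs, in Schwann-like cells. The alternative chains were rare, with 171 and 35 UMIs of Col6a5 and 37 and 13 of Col6a6 in fibroblast-like cells.

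The other FACIT collagens spread over fibroblast-like, Schwann-like and smooth muscle or pericyte-like cells. Col12a1, a collagen of tendon and ligament, was led by fibroblast-like cells at 87.1 CPM over both libraries. Col14a1 and Col16a1 were led by Schwann-like cells, at 167 and 164 CPM against 89.6 and 44.3 CPM in fibroblast-like cells. Among rare members Col19a1 was nearly confined to 1 group. Of its 99 UMIs in the named groups, 91 fell in smooth muscle or pericyte-like cells (12.9 CPM, next highest 0.0491 CPM in fibroblast-like cells). Over both libraries Col20a1 stood at 112 CPM in the 89 Schwann-like cells against 0.641 CPM or less in the other named groups. Schwann-like cells held only 34 of its 130 UMIs in the named groups. Col28a1, known from peripheral nerve, is not a FACIT collagen and was classed here with Col7a1 and Col26a1. It was at 75.5 CPM in Schwann-like cells against 0.712 CPM or less in the other named groups, with 23 of its 45 UMIs. Col22a1 had 47 UMIs in the named groups and was at 0.336 CPM or lower in each of them over both libraries.

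Of the transmembrane collagens, Col23a1 was led by fibroblast-like cells, at 78.5 and 93.7 CPM, and Col13a1 by endothelial-like cells, at 50.5 and 56.2 CPM against 26.5 and 23.6 CPM in fibroblast-like cells. Col25a1 was at 0.760 CPM or lower in every named group over both libraries. Of the remaining members, Col7a1, which forms anchoring fibrils, was at 0.487 CPM or lower in every named group, pooled alike. Col26a1 stood at 9.85 CPM in Schwann-like cells, from 3 UMIs, and at 3.82 CPM in fibroblast-like cells.

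In RPE cells most members differed beyond counting error from fibroblast-like cells, and most also from NK or T-like cells, in either direction. Of all 42 members, 7 were above fibroblast-like cells with an interval that left out 0 (all genes: 33.6%) and 29 were below (all genes: 48.8%). The 7 were Col4a3, Col4a4, Col8a1, Col8a2, Col9a1, Col9a3 and Col18a1. NK or T-like cells, with median depths of 3725 and 3886 UMIs, served as a gauge of background counts, since lymphocytes are not known to make collagen. RPE cells were deeper, at 16013.5 and 18115.5 UMIs. The part of depth in levels above or below this gauge was not tested. Of 35 members with UMIs in both groups, 7 were higher in RPE cells than in NK or T-like cells (all genes: 25.8%), namely the same set with Col4a5 in place of Col9a1, and 22 were lower (all genes: 40.5%). The 6 members above both, called RPE collagens here, were 6.38-fold (Col8a1) to 17.2-fold (Col9a3) above NK or T-like cells. The 22 lower members included all of types 1, 3, 5 and 6 that could be compared, Col4a1 and Col4a2. For example, Col1a1 was at 155 and 133 CPM in NK or T-like cells and at 58.8 and 37.8 CPM in RPE cells.

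Fibroblast markers stood in RPE cells at a fraction close to that of the fibroblast collagens. Taken here were the 11 collagens highest in fibroblast-like cells and at 20 CPM or more there. Their level in RPE cells was a median 9.001% of that in fibroblast-like cells in control and 6.08% in Dox. The 17 and 16 fibroblast markers that reached 10 CPM in fibroblast-like cells, none of them a collagen, were at a median 7.34% and 5.03%. They ranged from 3.42% to 11.1% in control, and the collagens from 7.19% (Col12a1) to 12.3% (Col5a2). The part of fibroblast RNA in the level of fibrillar collagens in RPE cells was not tested. Without the cells of highest doublet score, Col1a1 in RPE cells was lower still, at a log2 ratio of -5.06 to fibroblast-like cells in place of -3.73.

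**Figure D3:**
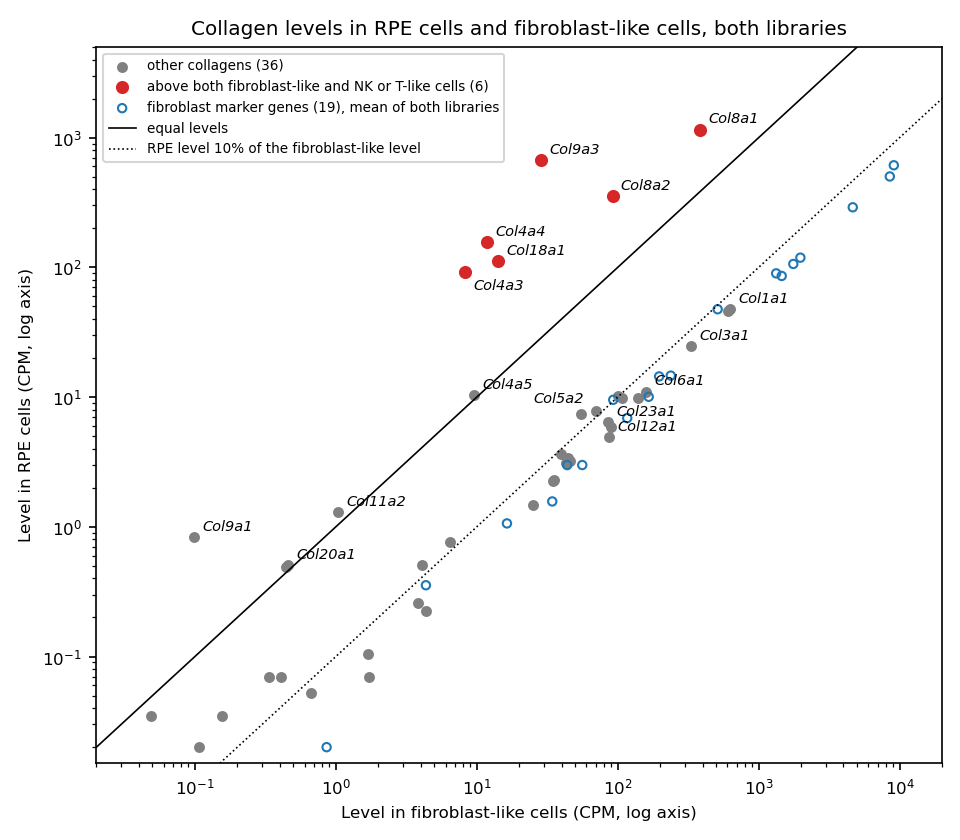
Level of each collagen in RPE cells (vertical axis) against fibroblast-like cells (horizontal axis), in CPM over both libraries on log axes, with levels under 0.02 CPM drawn at 0.02. Open circles are the 19 fibroblast markers (mean of both libraries), the solid line marks equal levels and the dotted line an RPE level of 10% of the fibroblast-like level. The 6 red points, Col9a3, Col8a1, Col8a2, Col4a4, Col18a1 and Col4a3, lie above the solid line, and the collagens above 10 CPM in fibroblast-like cells otherwise lie close to the dotted line, where the markers also lie or fall somewhat below it.

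From cell to cell the RPE collagens were seen in unlike shares of RPE cells, from 18.3% (Col4a3) to 84.5% (Col8a1) of thinned control cells. The set was chosen for lying above NK or T-like cells in these same counts. Its shares beside those of NK or T-like cells are therefore a description and no separate support. After each cell was thinned to 2000 UMIs, which left 1494 control and 1589 Dox RPE cells, Col8a1 was seen in 84.5% and 85.6% of RPE cells (98.2% and 98.5% unthinned). In NK or T-like cells thinned alike, 410 in control and 242 in Dox, the share was 23.4% and 28.9%. Col9a3 was seen in 64.8% (62.3 to 67.2) of control and 72.6% (70.4 to 74.8) of Dox RPE cells, against 7.32% and 9.92% of NK or T-like cells. Col8a2 followed with 45.9% and 51.2%, Col4a4 with 27.7% and 31.7%, Col18a1 with 19.2% and 21.9%, and Col4a3 with 18.3% and 22.3%. In NK or T-like cells these shares were 6.59% and 4.96% for Col8a2, 3.41% and 2.48% for Col4a4, 1.71% and 3.31% for Col18a1, and 2.68% and 1.65% for Col4a3. By contrast Col1a1 was seen in 9.77% and 6.99% of RPE cells, which did not exceed the 10.7% and 9.50% of NK or T-like cells, the gauge of background used here. Unthinned, the order was reversed, with Col1a1 in 28.3% and 20.7% of RPE cells against 19.7% and 16.2% of the shallower NK or T-like cells. The part of depth in this comparison was not tested. Before thinning, the median RPE cell held 994.5 CPM of Col8a1 in control, with quartiles of 704 and 1378 CPM. The median of Col1a1 was 0.

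Within RPE cells the correlation of the 2 chains of a pair ran from 0.104 to 0.537 in thinned cells. In cells thinned to 2000 UMIs, Pearson's r of Col4a3 with Col4a4 was 0.329 over 1494 control cells and 0.355 over 1589 Dox cells. The correlation of Col8a1 with Col8a2 was 0.112 and 0.104, and that of Col8a1 with Col9a3 was 0.073 and 0.125. Col1a1 with Col1a2 gave 0.372 and 0.537, the highest of the 6 pairs computed. The cells of a library share their preparation and their free RNA, RPE cells of all clusters were pooled, and counts were sparse. The size of r therefore does not show how closely 2 chains vary, and the values are a description only.

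The RPE cells that fell in the unnamed cluster (96 in control and 108 in Dox) differed from those of the RPE-like cluster in several collagens. Col4a4 stood there at 868 and 1066 CPM, against 132 and 155 CPM in RPE cells of the RPE-like cluster, and Col4a3 at 401 and 481 CPM against 80.5 and 94.4 CPM. Col8a2 was lower, at 131 and 174 CPM against 357 and 373 CPM, while Col8a1 was at 1208 and 1381 CPM against 1081 and 1247 CPM. Fibrillar chains were higher as well, with Col1a1 at 358 and 231 CPM against 41.7 and 21.6 CPM and Col3a1 at 217.5 and 111 CPM against 20.2 and 10.8 CPM. The fibroblast marker Dcn moved with them, at 5478 and 2678 CPM against 544 and 282 CPM. These cells were shallow, with median depths of 3220.5 and 3098 UMIs against 18143 and 20709.5, and the nuclear RNA Malat1 took 121900 and 151100 CPM in them against 11850 and 12020 CPM. The part of depth, of nuclear RNA and of fibroblast RNA in their collagen levels was not tested.

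Between control and Dox RPE cells the RPE collagens were slightly higher and most others lower. The paper gives as a limit that injected Dox reached only part of the RPE, so not all Dox RPE cells need have been exposed. Of the 42 members, 32 had 20 or more UMIs in RPE cells and were compared. None was 2-fold or more higher in Dox (all genes: 0.992% of 14215), and 3 were 2-fold or more lower (all genes: 3.31%), namely Col4a6, Col15a1 and Col16a1. Col15a1 fell from 86 to 43 UMIs, a log2 ratio of -1.25 (-1.81 to -0.70), and Col16a1 from 130 to 64 UMIs, -1.27 (-1.72 to -0.83). The interval of Col4a6, with 19 and 10 UMIs, included 0. Intervals lay above 0 for 6 members (all genes: 9.08%) and below 0 for 16 (all genes: 14.7%). The median log2 ratio of the members was -0.44, against -0.02 for all genes compared.

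The 6 members above 0 were the 6 RPE collagens. Col9a3 was 1.23-fold higher in the Dox library, with a log2 ratio of 0.29 (0.26 to 0.32). Col4a3 and Col4a4 both had log2 ratios of 0.25 (0.17 to 0.33 and 0.19 to 0.31), and Col8a1 was at 0.22 (0.19 to 0.24). The smallest differences were those of Col8a2 at 0.08 (0.04 to 0.12) and Col18a1 at 0.08 (0.01 to 0.15). With 1 pool of 5 mice on each side, the size of these differences relative to the spread between mice is unknown. In RPE cells of the RPE-like cluster alone the interval of Col18a1 included 0 (0.06, -0.01 to 0.14). RPE cells were also split by the protease inhibitor Serpina3n, after the data were seen. In the 36 control and 225 Dox RPE cells with 10 or more of its UMIs, Col18a1 was lower in Dox (-0.85, -1.11 to -0.58). The intervals of Col9a3 (-0.05, -0.14 to 0.05) and Col8a2 (-0.11, -0.28 to 0.06) included 0 there, and those of Col4a3, Col4a4 and Col8a1 lay above 0.

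Every member with an interval below 0 was one whose level lay below that in the shallower NK or T-like cells. Of the 22 such members 20 were compared, 19 had a lower level in Dox and 16 an interval below 0. Col1a1 stood in RPE cells at 58.8 CPM (control, 55.9 to 61.8) and 37.8 CPM (Dox, 35.6 to 39.97), with a log2 ratio of -0.64 (-0.75 to -0.53). Col1a2, at -0.62, and Col3a1, at -0.53, were close to it, and Col6a1, Col6a2 and Col6a3 were at -0.76, -0.74 and -0.80. Summed markers of other cell types were also lower in Dox RPE cells, by amounts that differed between types. The 19 fibroblast markers summed to 2319 CPM (control) and 1518 CPM (Dox), with a log2 ratio of -0.61 (-0.63 to -0.59), with 14 of the 18 that had 20 UMIs lower in Dox and Kera at 0 in both libraries. The summed melanocyte markers were at -0.67, macrophage or antigen presenting markers at -1.06, smooth muscle or pericyte markers at -0.58, endothelial markers at -0.48 and Schwann markers at -0.16. NK or T markers, of the group used to gauge background, fell from 22.5 to 3.65 CPM, a log2 ratio of -2.62. The part of these other cells' RNA in the lower collagens was not tested.

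**Figure D4:**
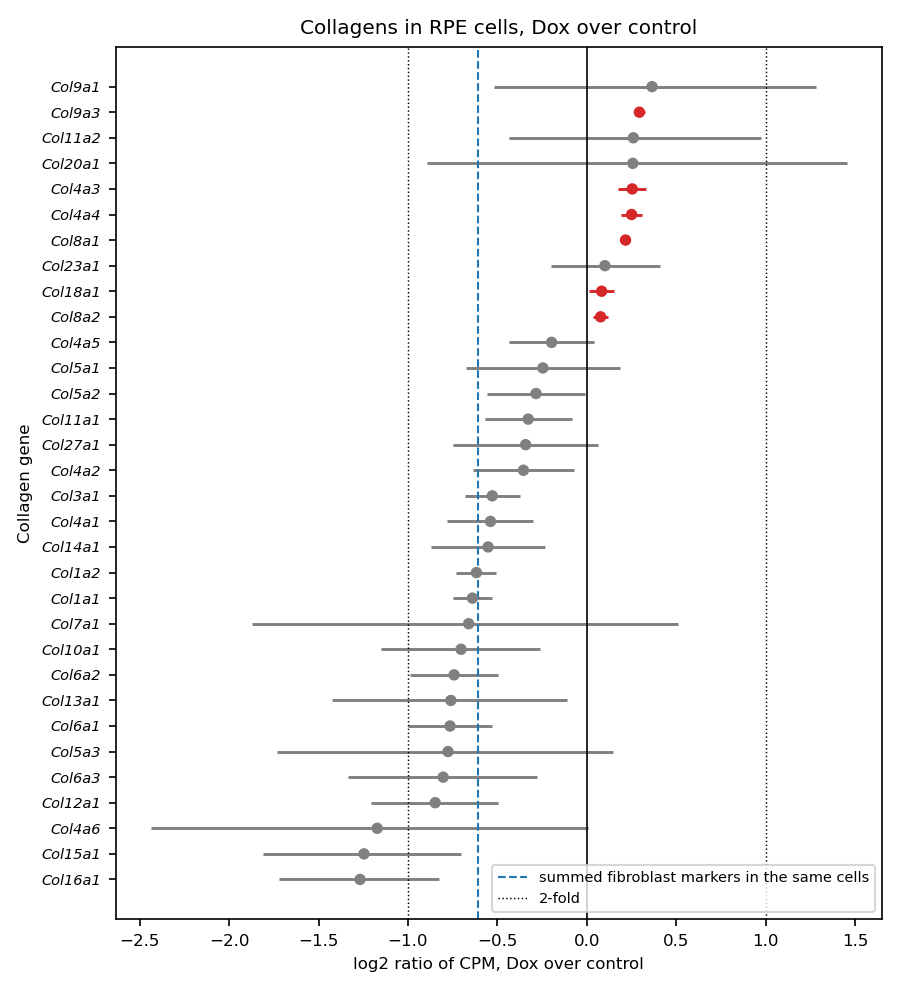
Log2 ratio of Dox over control in RPE cells for the 32 collagens compared, ordered by value, with exact 95% intervals for counting error as bars. The dashed line marks the summed fibroblast markers at -0.61 and the dotted lines mark 2-fold. The 6 RPE collagens (red) lie between 0.08 and 0.29 with narrow intervals, the intervals of Col9a1, Col11a2, Col20a1 and Col23a1 reach across 0, and the type 1, 3 and 6 chains lie within 0.2 of the dashed line.

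How RPE cells were chosen moved these values. Within the RPE-like cluster alone, 9 members were 2-fold or more lower in place of 3, and Col1a1 was at a log2 ratio of -0.95. The 17 control and 58 Dox RPE cells of the fibroblast-like clusters held 149 of 1548 and 361 of 1178 Col1a1 UMIs of RPE cells. For Col3a1 they held 47 of 775 and 224 of 637. The 92 and 55 RPE cells of the melanocyte-like cluster held 179 and 55 Col1a1 UMIs. The part of these unequal cell numbers in the ratios was not tested. With the level of NK or T-like cells subtracted from each library, 11 members kept a ratio and 1 was 2-fold or more lower. The median of those 11 was 0.26, a different set from the 32 members with a median of -0.44. Without the cells of highest doublet score Col3a1 was at -0.10 and Col1a1 at -0.38. No share of all genes is given for these choices, so the counts of 9 and 1 cannot be set against all genes.

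In fibroblast-like cells, the main source of collagen RNA by cell number, little differed between the libraries. Of 38 members compared, none was 2-fold or more higher in Dox (all genes: 0.767%) and 2 were 2-fold or more lower (all genes: 2.34%). These were the rare chains Col6a5, with 171 UMIs in control and 35 in Dox (-2.04, -2.61 to -1.51), and Col6a6, with 37 and 13 (-1.27, -2.30 to -0.32). Intervals lay above 0 for 10 members (all genes: 14.1%) and below 0 for 12 (all genes: 12.5%), and the medians were -0.01 for members and 0.01 for all genes. Col1a1, Col1a2 and Col3a1 were at -0.03, -0.01 and 0.05. Among the abundant members Col15a1 stood out, at 40.6 CPM (control, 39.1 to 42.2) and 27.5 CPM (Dox, 26.2 to 29.0), -0.56 on the log2 scale. Col23a1, at 0.25, and Col27a1, at 0.22, were higher in Dox with intervals that left out 0.

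Of the RPE collagens, Col9a3, Col4a3, Col4a4 and Col8a1 had intervals above 0 in fibroblast-like cells too, and RPE markers moved with them. Col9a3 stood there at 21.8 CPM (control) and 36.9 CPM (Dox), a 1.69-fold difference, and Col4a3 at 7.34 and 9.44 CPM. In fibroblast-like cells the 10 RPE markers summed to 3445 CPM (control) and 5328 CPM (Dox), 1.55-fold. In melanocyte-like cells RPE markers were 2.77-fold higher, from 10850 to 30070 CPM. There 4 members were 2-fold or more higher in Dox (all genes: 3.84%), Col4a3, Col4a4, Col8a1 and Col9a3, each of them an RPE collagen, with Col9a3 at 94.5 and 253 CPM. The 2 that were 2-fold or more lower there (all genes: 2.67%) were Col6a3, with 75 and 14 UMIs, and Col13a1, with 52 and 8. The part of RPE RNA in these differences was not tested.

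Smooth muscle or pericyte-like cells had lower Col1a1 in the Dox library. Of 29 members compared there, 4 were 2-fold or more lower in Dox (all genes: 2.64%). Col1a1 went from 173 CPM (162 to 186) to 82.0 CPM (70.4 to 94.9), with 840 and 179 UMIs, Col12a1 from 116 to 19 UMIs, Col15a1 from 51 to 3 and Col6a3 from 33 to 6. Over both libraries Col1a1 was at 145.0 CPM, against 146.7 CPM in NK or T-like cells, the gauge of background. Col15a1 (7.69 against 13.8 CPM) and Col6a3 (5.55 against 7.04 CPM) lay below that gauge, and Col12a1 was at 19.2 against 15.9 CPM. The part of background counts in these differences was not tested. The basement membrane chains of smooth muscle or pericyte-like cells differed less, with Col4a1 at 131.5 and 125 CPM and Col4a2 at 88.2 and 92.5 CPM. Col4a3, with 27 and 31 UMIs, was the 1 member 2-fold or more higher (all genes: 1.0%). Fibroblast markers in these cells summed to 8558 and 5986 CPM, and RPE markers to 3819 and 6081 CPM, and their part in the differences was not tested. In endothelial-like cells Col9a3 was 2-fold or more higher (41 and 52 UMIs, all genes: 1.74%), again with RPE markers 1.95-fold higher, and the 2 members 2-fold or more lower (all genes: 2.99%), Col10a1 and Col16a1, had intervals that included 0. In the remaining groups, ratios 2-fold or more lower whose interval left out 0 were those of Col4a2 (97 and 20 UMIs) and Col5a1 (55 and 11) in macrophage or antigen presenting-like cells (all genes: 2.4%) and of Col6a3 (20 and 4) in NK or T-like cells (all genes: 2.94%). Those 2-fold or more higher were Col28a1 (7 and 16 UMIs) in Schwann-like cells (all genes: 2.63%) and Col4a3 (174 and 208), Col9a3 (301 and 422) and Col24a1 (16 and 18) in the unnamed cells (all genes: 2.25%). RPE markers in the unnamed cells summed to 8510 and 16000 CPM, 1.88-fold higher in Dox, and their part was not tested.

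Fibroblast-like cells were not uniform in collagen. They were split by genes that are no collagens, and cells with 3 or more UMIs of Tnmd plus Chad, markers of tendon and cartilage cells, stood highest among the larger subsets. These 624 control and 466 Dox cells summed to 5980 and 6301 CPM of collagen, against 2961 and 3037 CPM in the 9536 and 7138 cells that passed no gate. Col1a1 reached 1514 and 1650 CPM in them, Col12a1 451 and 522 CPM, Col8a2 236 and 254 CPM and Col11a1 187 and 212 CPM. In cells of no gate Col12a1 stood at 51.1 and 45.8 CPM. Col23a1 ran the other way, at 15.04 and 17.7 CPM in Tnmd or Chad cells against 83.8 and 97.9 CPM in cells of no gate. Tnmd or Chad cells were deeper, with medians of 8110 and 8716.5 UMIs against 4443 and 5177.5 UMIs in cells of no gate. The part of depth in these differences was not tested.

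Cells with 20 or more UMIs of Myoc, a gene of the trabecular meshwork and sclera, numbered 515 and 421 and were low in Col15a1 (3.84 and 8.12 CPM) and Col23a1 (15.4 and 12.7 CPM). The opposite was seen in the 2001 and 1664 cells with 5 or more UMIs of the interferon-induced chemokines Cxcl9 plus Cxcl10. There Col15a1 stood at 84.6 and 51.5 CPM and Col23a1 at 109 and 135 CPM, while Col12a1 was at 47.1 and 30.6 CPM. The lower Col15a1 in Dox was present in these cells as well as in those of no gate (36.6 and 25.4 CPM). Median depths were 6879 and 7224 UMIs in Myoc cells and 4607 and 5213 UMIs in Cxcl9 or Cxcl10 cells. The part of depth was not tested here either. Kera, a proteoglycan gene of the corneal stroma, marked 10 control cells and no Dox cell, and these had 16360 CPM of collagen, with Col1a1 at 5822 CPM.

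A small fibroblast-like cluster led by Sfrp4, with 112 control and 69 Dox cells, was rich in type 3 collagen. Col3a1 stood there at 2153 and 3165 CPM, next to 2572 CPM in the 10 Kera cells of control, and Col1a1 at 2406 and 2866 CPM. Col14a1 was at 549 and 777 CPM, Col5a1 at 209 and 379 CPM and Col8a1, the collagen shared with the RPE, only at 131 and 168 CPM. Of the 171 control UMIs of Col6a5 in fibroblast-like cells 119 came from this cluster, and 29 of the 35 in Dox, and within it Col6a5 was at 153 and 58.8 CPM. Col6a5 is itself among the leading genes of that cluster, which was found without it.

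**Figure D5:**
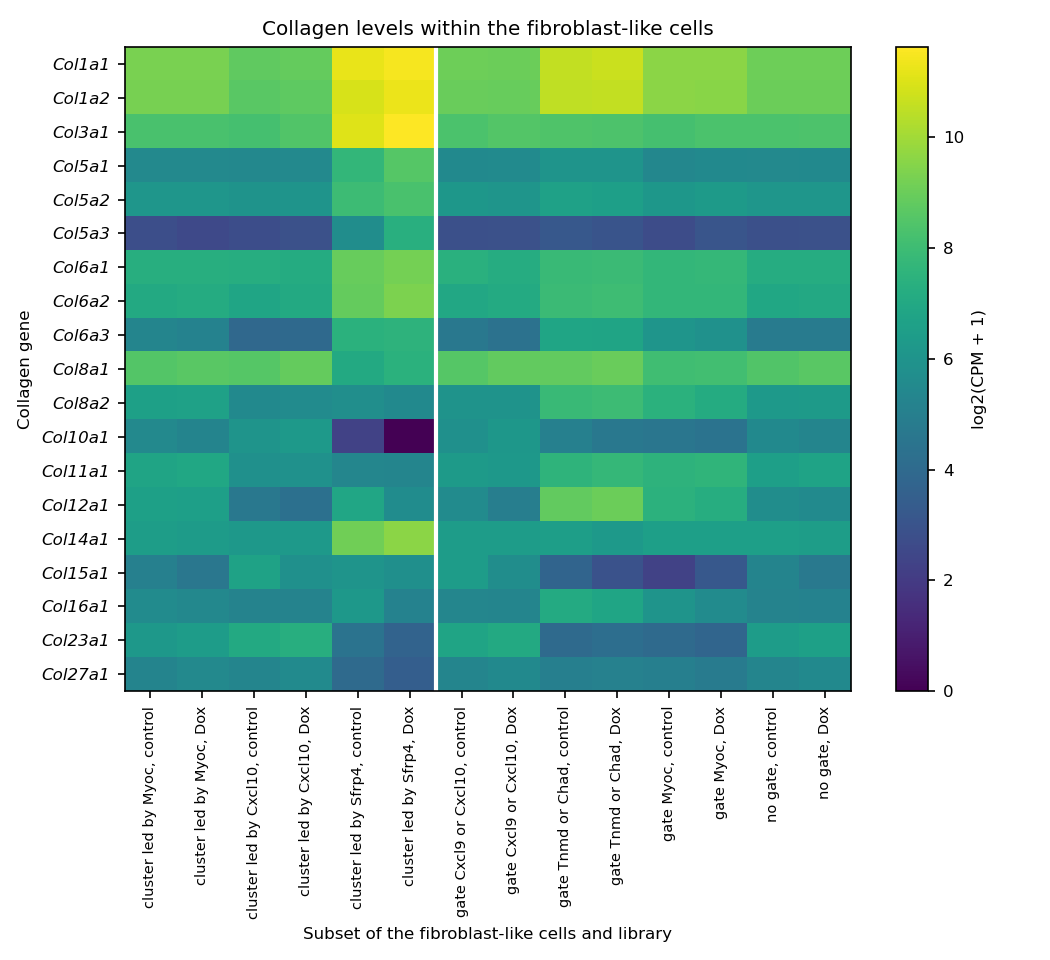
Collagen levels in subsets of fibroblast-like cells, as log2(CPM + 1) with yellow high and dark blue low, with control and Dox as neighbouring columns. The 3 clusters stand left of the white line and the subsets split by genes that are no collagens stand right of it, the Kera subset not drawn. Col1a1, Col3a1 and Col14a1 are brightest in the cluster led by Sfrp4, Col12a1 in the Tnmd or Chad subset, and Col15a1 is darkest in the Myoc subset.

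The genes that process, mature and bind collagen were followed in 4 lists of 50 genes in all. Procollagen processing enzymes and chaperones were led by fibroblast-like cells for 10 of 18 genes and by RPE cells for none (all genes: 9.8% and 15.3%). The chaperone Serpinh1, for example, was at 588 and 610 CPM in fibroblast-like cells and at 143 and 130.5 CPM in RPE cells. Of the 16 processing genes compared in RPE cells none was 2-fold higher in Dox (all genes: 0.992%) and 1, P3h2, was 2-fold lower (all genes: 3.31%), with no interval above 0 (all genes: 9.08%) and 4 below (all genes: 14.7%). Among the 11 genes of maturation outside the cell, 9 were compared, with 2 intervals above 0 and 3 below (all genes: 9.08% and 14.7%). Pcolce, the enhancer of procollagen C-proteinase, stood in RPE cells at 653 CPM (control) and 1048 CPM (Dox), with a log2 ratio of 0.68 (0.66 to 0.71), and at 1153 and 1201 CPM in fibroblast-like cells. The crosslinking enzyme Lox went from 7.53 to 4.90 CPM in RPE cells (-0.62, -0.93 to -0.31), in the range of the fibroblast markers.

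Of 8 collagen receptors 6 were compared in RPE cells, with 1 interval above 0, that of Ddr1 (46.7 and 51.4 CPM), and 2 below (all genes: 9.08% and 14.7%). The receptor of leukocytes Lair1 was 2-fold lower (all genes: 3.31%), from 1.03 to 0.417 CPM. Of 13 basement membrane partners 11 were compared, with 1 interval above 0 (Sparc, 565 and 610 CPM), 4 below and 1 gene, Lama4, 2-fold lower (all genes: 9.08%, 14.7% and 3.31%). The linker Nid2 was the 1 partner with its highest level in RPE cells (all genes: 15.3%), at 48.0 and 50.2 CPM against 9.43 and 8.80 CPM in fibroblast-like cells. Its paralogue Nid1 was highest in Schwann-like cells and stood at 7.11 and 4.87 CPM in RPE cells.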

How the data were processed

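Per the file headers and the study's methods, the authors aligned the reads of 1 control and 1 Dox library to mm10 with Cell Ranger (4.0.0 in the headers, the methods also naming a later version), and the deposited values are raw counts of UMIs per gene and cell. Cells were kept with over 500 UMIs, 200 to 6000 genes, log10 genes divided by log10 UMIs over 0.8 and a mitochondrial share under 0.2. They were normalised, integrated and clustered in Seurat 5.3.0 (sctransform 0.4.2, R 4.3.3, 3000 features of which 2971 were used after leaving out collagens, 40 components, resolution 0.1), and clusters were named from marker lists. Doublets were removed only by the limit on genes. Medians of kept cells were 4495 and 4995 UMIs.

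Counts were summed per cell group and library and divided by the summed total, in Python 3.11.15 with scipy 1.17.1. Levels have exact Poisson 95% intervals, ratios exact conditional binomial intervals and shares exact Clopper-Pearson intervals. Genes needed 20 UMIs in a group to be compared between libraries. With 1 library per condition no test was made. Values per library are given for members at 20 CPM or more in RPE cells, the 3 highest of each named group, the chains of types 1, 3, 4, 5, 6, 8, 9, 11, 15 and 18, and members past 2-fold with an interval that leaves out 0. All members and lists were chosen with earlier results of these data known. The interval code was tested on simulated data. The 15 alternatives tried cover the RPE limit, cell filters, doublet scores, scaling, background subtraction, gene filters, clustering and fibroblast limits. The split of RPE cells by cluster and by Serpina3n was added after seeing the data.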

Additional observations from a re-analysis of the deposited data

Results flagged for a closer look

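For 3 members the interval in RPE cells lay below 0 while that in fibroblast-like cells lay above 0, so the difference between Dox and control ran in opposite directions in the 2 cell groups. Col3a1 had a log2 ratio of -0.53 in RPE cells and 0.05 in fibroblast-like cells, a gap of -0.58. For Col6a2 the ratios were -0.74 and 0.08, a gap of -0.83. Col11a1 had -0.33 and 0.09, a gap of -0.42. The values in RPE cells moved with the cells kept. Without the cells of highest doublet score Col3a1 was at -0.10. In RPE cells with under 10 Serpina3n UMIs the interval of Col11a1 included 0 (-0.16, -0.41 to 0.10). In the RPE-like cluster alone Col3a1 was at -0.91 and Col11a1 at -0.49. All 3 members were among the 22 whose level in RPE cells lay below that in NK or T-like cells. Of all genes compared, 14.7% had an interval below 0 in RPE cells and 14.1% one above 0 in fibroblast-like cells. The share of all genes with both was not computed, so the count of 3 members cannot be set against it. The ratios in fibroblast-like cells were small, and their intervals cover counting error only. With 1 library per condition these differences between cell groups were not tested. The summed fibroblast markers had a log2 ratio of -0.61 in RPE cells, and their part in the 3 gaps was not tested.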

How the results depend on the processing

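The number of members 2-fold or more lower in Dox RPE cells, 3 as reported, was 5 with 20 or more Rpe65 UMIs, 9 in the RPE-like cluster alone, 9 with no filter on UMIs and 1 with the NK or T-like level subtracted. The number 2-fold or more higher, 0 as reported, was 1 with no filter and 1 with that subtraction. No share of all genes is given for these alternatives, so their counts cannot be set against all genes. That subtraction left 11 members with a ratio, whose median was 0.26. The reported median of -0.44 is that of all 32 members compared, so the 2 medians rest on different sets of members. The summed collagen level of control and Dox RPE cells, 2611 and 2898 CPM as reported, was 2572 and 2827 CPM with 20 or more Rpe65 UMIs, 2573 and 2844 in the RPE-like cluster, 2577 and 2877 without the highest doublet scores, 2685 and 2981 without mitochondrial genes, 2916 and 3257 as the mean over cells, and 2052 and 2405 after subtraction. With a mitochondrial share under 0.1 the Dox sum was 2871 CPM. The cause of these shifts was not tested. Leaving out the highest doublet scores removed 522 RPE cells. No paired analysis was possible because the labels give no replicate numbers and each condition is 1 library, and for the same reason no replicate could be left out. Schwann-like levels rest on 89 cells, and rare members there on a few UMIs.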

Other observations

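RPE cells were also split, after the data were seen, by Serpina3n, an acute phase protease inhibitor, of which 36 control and 225 Dox RPE cells held 10 or more UMIs. Their median depths were 31470.5 (control) and 29405 (Dox) UMIs, against 15790.5 and 16000 UMIs in the other RPE cells. The part of depth in the differences between these sets was not tested. Among Dox cells, those with 10 or more UMIs had Col8a1 at 1571 CPM against 1143 CPM in the other 1405 cells, and Col9a3 at 914 CPM against 683 CPM. In control the same 2 genes were also higher in the Serpina3n cells, at 1421 against 1046 CPM and at 944 against 581 CPM. Col8a2 was lower in them, at 293 against 347 CPM in control and 272 against 388 CPM in Dox. Col4a3 was lower too, at 63.97 against 85.0 CPM in control and 84.35 against 104.5 CPM in Dox. So was Col4a4, at 95.07 against 143.8 CPM in control and 141.4 against 175.7 CPM in Dox. Col18a1 differed between the libraries, at 142 against 107 CPM in control and 78.9 against 124 CPM in Dox. From control to Dox, Col18a1 had a log2 ratio of -0.85 (-1.11 to -0.58) within the Serpina3n cells and 0.22 (0.14 to 0.29) in the others. Rpe65 was at 2119 CPM in the Dox Serpina3n cells and 5601 CPM in the other Dox cells. Each library is 1 sample and the control set has few cells, so the values are a description only.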
